A study of Mus musculus with 4 samples.

Results

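The genes of the rod phototransduction cascade described here were Gnat1, Gnb1 and Gngt1 for transducin, Pde6a, Pde6b and Pde6g for the rod phosphodiesterase, Cnga1 and Cngb1 for the cyclic nucleotide-gated channel, and Sag for rod arrestin. They were taken by name from the gene tables, where these 9 of 21828 genes were found on 10 of 23021 lines, with Cngb1 listed on 2 of them. RNA sequencing was done on retinal cells of pHes1-EGFP mice, in which a Hes1 promoter drives a destabilized EGFP, and the labels give the strain as FVB/N and no particular treatment. Cells were sorted into an EGFP-positive fraction (pHes1_EPC) and an EGFP-negative fraction (pHes1_ENC) at postnatal day 1 (P1) and postnatal day 4 (P4), with 1 library for each of the 4 groups. All 4 groups carried the transgene, so pHes1_ENC are cells of transgenic retinas that were sorted as negative for the reporter and not cells of wild-type animals. FVB/N is an inbred strain known to carry a retinal degeneration allele of Pde6b, and the labels do not give the genotype at this gene or how many animals were sorted.

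Phototransduction turns the absorption of light into a change of membrane voltage. Light-activated opsin exchanges GDP for GTP on the alpha subunit of transducin, the alpha subunit lifts the inhibitory gamma subunits from phosphodiesterase 6, and the enzyme then hydrolyzes cyclic GMP, so that the cyclic GMP-gated channels of the outer segment close. Arrestin ends the signal by binding the phosphorylated opsin. In the mouse, rods are born around birth and the genes of the cascade come on in the following days, before outer segments are formed, whereas Müller glia and progenitors, in which the Hes1 promoter is active, are not known to use it.

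Promoters of rod genes are known to be bound by the homeodomain factor Crx, whose motif is written TAATCC, and by Nrl, a factor of the Maf family, whose motif has TGCTGA as its core. The 250 bases before the start of the gene were taken from RefSeq (GRCm38.p6). Gnat1, Pde6a and Pde6g are without a window here, so the counts cover 6 of the 9 genes. The letters TAATCC, read on both strands, stood in 4 of these 6 windows, which were those of Gngt1, Cnga1, Cngb1 and Sag, and in 6.25% of all 32851 windows of this length. The letters TGCTGA stood in 2 of the 6, which were Pde6b and Sag, and in 16.1% of all windows. Both stood in the window of Sag and in 0.962% of all windows, and no match of the one motif overlapped a match of the other in the windows of these genes. Of the 6 windows, the 5 with a match are shown, and that of Gnb1 as the one with none. Capitals mark either motif, with TAATCC read as GGATTA when it lies on the other strand. Each window is on the strand of its gene, and its last base is the base before the start.
Sag, chr1:87803430-87803679, plus strand: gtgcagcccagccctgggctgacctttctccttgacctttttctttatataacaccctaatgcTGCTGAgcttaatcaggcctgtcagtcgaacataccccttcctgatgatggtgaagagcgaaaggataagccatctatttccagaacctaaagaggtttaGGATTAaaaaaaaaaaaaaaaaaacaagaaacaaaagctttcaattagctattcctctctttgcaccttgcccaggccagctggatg
Cngb1, chr8:95306586-95306835, minus strand: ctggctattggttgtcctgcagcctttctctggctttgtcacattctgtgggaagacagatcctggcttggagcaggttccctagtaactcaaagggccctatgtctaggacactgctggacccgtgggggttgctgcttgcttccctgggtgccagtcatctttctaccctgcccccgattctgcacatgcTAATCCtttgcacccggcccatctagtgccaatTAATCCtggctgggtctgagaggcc
Cnga1, chr5:72642753-72643002, minus strand: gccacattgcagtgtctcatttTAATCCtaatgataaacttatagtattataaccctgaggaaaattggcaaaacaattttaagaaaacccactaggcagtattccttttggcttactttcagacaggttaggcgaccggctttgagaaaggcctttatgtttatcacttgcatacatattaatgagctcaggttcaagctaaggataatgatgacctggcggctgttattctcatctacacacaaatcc
Gngt1, chr6:3993758-3994007, plus strand: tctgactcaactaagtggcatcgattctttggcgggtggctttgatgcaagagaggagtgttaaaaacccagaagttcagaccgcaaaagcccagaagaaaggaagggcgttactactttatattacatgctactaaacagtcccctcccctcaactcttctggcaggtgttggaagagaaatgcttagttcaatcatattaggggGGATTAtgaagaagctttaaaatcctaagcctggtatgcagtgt
Pde6b, chr5:108388123-108388372, plus strand: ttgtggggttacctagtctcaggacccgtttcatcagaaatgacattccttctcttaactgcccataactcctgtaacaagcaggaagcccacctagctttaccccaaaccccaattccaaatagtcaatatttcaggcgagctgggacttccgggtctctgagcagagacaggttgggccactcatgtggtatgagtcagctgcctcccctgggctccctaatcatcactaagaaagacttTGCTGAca
Gnb1, chr4:155491111-155491360, plus strand: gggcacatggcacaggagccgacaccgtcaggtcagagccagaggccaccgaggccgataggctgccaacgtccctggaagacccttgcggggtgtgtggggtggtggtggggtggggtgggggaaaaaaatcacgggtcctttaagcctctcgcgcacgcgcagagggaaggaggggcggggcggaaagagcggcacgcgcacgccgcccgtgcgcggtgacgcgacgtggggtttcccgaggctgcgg
In Sag, GGATTA began 87 bases before the start and TGCTGA 187 bases before it. Cngb1 held TAATCC at 58 and at 25 bases before the start, Cnga1 held it at 228, Gngt1 held GGATTA at 44, and Pde6b held TGCTGA at 8. Gnb1 held neither, and its window differed in base composition, with 69.2% G and C and 26 CpG, against a median of 52.4% G and C over all windows. A match describes the letters of the window, and binding was not measured in these libraries.

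FPKM relates the fragments of a gene to the length of its transcript and to the size of the library, so levels of different genes may be set side by side within a library. The FPKM of all lines summed to between 342618 and 450080, and between 11458 and 12108 genes reached an FPKM of at least 1. Hes1, whose promoter drives the reporter, was 6.31 times higher in pHes1_EPC at P1 and 26.1 times higher at P4. Of 11 markers of Müller glia, 9 were more than 2-fold higher in pHes1_EPC at P1 and 10 at P4, with no marker at 0, and their summed FPKM was 1685 against 543 at P1 and 3156 against 367 at P4. Of 8 markers of amacrine and horizontal cells, 7 at P1 and 6 at P4 were more than 2-fold lower in pHes1_EPC, and they summed to 254 in pHes1_ENC against 10.9 at P1 and 85.1 against 15.1 at P4, none of them at 0. The P4 sums are mostly that of Slc6a9, at 62.6 against 10.1. In pHes1_ENC Slc6a9 was higher at P4 than at P1, while the other 7 were lower. Of 8 bipolar cell markers, 3 at P1 and 1 at P4 were more than 2-fold lower in pHes1_EPC and 1 at P4 was higher, with medians of -0.02 and -0.42, and of 7 ganglion cell markers 1 at P1 and 0 at P4 were lower, with medians of -0.14 and -0.02. The summed FPKM of the bipolar list, 519 against 48.9 at P1 and 851 against 304 at P4, is mostly that of Otx2, which photoreceptors also express, at 509 against 41.8 and 835 against 292. At P1, 1 bipolar marker in pHes1_ENC and 2 in pHes1_EPC were at 0, and the ganglion list summed to 35.2 against 20.7 at P1 and 3.79 against 3.50 at P4. Of 8 red blood cell genes, 4 at P1 and 6 at P4 were more than 2-fold lower in pHes1_EPC, where 1 was at 0, and their sums in pHes1_ENC were 214 and 514, against 0.904 and 8.86 in pHes1_EPC. Of 7 pigment epithelium genes, 5 were more than 2-fold higher in pHes1_EPC at P4, where the sum was 63.2 against 6.29 in pHes1_ENC, in which 2 were at 0. The part of these other cells in the levels of the rod genes was not tested.

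Gnat1 encodes the alpha subunit of rod transducin, which carries the GTP and activates the phosphodiesterase. Gnat1 (chr9:107576805-107581923, mm9, 9 exons) was listed at an FPKM of 1.03 in pHes1_ENC and 0.570 in pHes1_EPC at P1, and 18.4 and 3.71 in the same fractions at P4. The P1 libraries were both low and their Cufflinks intervals (95%, counting error only) overlapped, at 0.741 to 1.32 and 0.363 to 0.777, while the P4 libraries stood apart. Gnb1, for the beta subunit that transducin shares with G proteins of many other tissues, is on chr4:154865470-154933378. Its FPKM was 155 in pHes1_ENC and 114 in pHes1_EPC at P1, and 425 and 197 in the same fractions at P4. It was thus abundant in every library and the highest of the 9 genes in each except P4 pHes1_ENC. Gngt1, for the gamma subunit of rod transducin, is on chr6:3944012-3947436. Its FPKM was 15.7 in pHes1_ENC and 1.78 in pHes1_EPC at P1, and 187 and 55.8 in the same fractions at P4, so that both P4 libraries were above both P1 libraries.

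Within transducin the 3 subunits were listed at unequal levels. Gngt1 was 15.2, 3.11, 10.1 and 15.1 times the FPKM of Gnat1 in P1 pHes1_ENC, P1 pHes1_EPC, P4 pHes1_ENC and P4 pHes1_EPC. The ratio in P4 pHes1_ENC lay above its range from the intervals, 7.57 to 9.86. Gnb1 was 150 and 201 times the FPKM of Gnat1 in pHes1_ENC and pHes1_EPC at P1 and 23.0 and 53.1 times at P4. Against Gngt1, Gnb1 was 9.88 and 64.5 times higher at P1 and 2.27 and 3.52 times higher at P4. Except in P1 pHes1_EPC these ratios lay below their ranges from the intervals, as at 2.27 against 2.71 to 3.05 in P4 pHes1_ENC. The beta subunit was therefore the first in level in all 4 libraries, and the excess over its partners was smallest in P4 pHes1_ENC.

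Pde6a and Pde6b encode the catalytic subunits of the rod phosphodiesterase, and Pde6g encodes the small inhibitory subunit. Pde6a lies on chromosome 18 from 61380153 to 61449372, and its FPKM was 0.574 in pHes1_ENC and 0.0382 in pHes1_EPC at P1, and 6.40 and 1.06 in the same fractions at P4. It was the lowest of the 9 genes in every library, and the width of its interval in P1 pHes1_EPC is that of 6.61 reads. Pde6b (chr5:108817392-108860761) had an FPKM of 13.1 in pHes1_ENC and 0.759 in pHes1_EPC at P1, and 166 and 21.3 in the same fractions at P4. P1 pHes1_EPC stood alone at the low end and P4 pHes1_ENC at the high end. Pde6g (chr11:120308924-120314797) had an FPKM of 49.1 in pHes1_ENC and 6.62 in pHes1_EPC at P1, and 549 and 140.5 in the same fractions at P4.

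The catalytic subunits form a dimer in the rod, yet the FPKM of Pde6b was 22.9, 19.9, 25.9 and 20.1 times that of Pde6a in P1 pHes1_ENC, P1 pHes1_EPC, P4 pHes1_ENC and P4 pHes1_EPC. As listed, this ratio varied little between the libraries, in which each of the genes differed widely. Its range from the intervals was 7.45 to 107 in P1 pHes1_EPC, where Pde6a has few reads, so a steady ratio is not established there. Pde6g was higher than Pde6b in all 4 libraries, by 3.74 and 3.30 times in pHes1_ENC and by 8.73 and 6.58 times in pHes1_EPC. Except in P1 pHes1_EPC these ratios lay above their ranges from the intervals, as at 6.58 against 4.84 to 6.17 in P4 pHes1_EPC. The excess of the inhibitory subunit was thus larger in pHes1_EPC at both ages.

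Cnga1 encodes the alpha subunit of the rod channel, which forms the pore, and Cngb1 the beta subunit, which carries a glutamic acid-rich region. Cnga1 (chr5:72994936-73033991) had an FPKM of 2.93 in pHes1_ENC and 0.150 in pHes1_EPC at P1, and 39.8 and 6.79 in the same fractions at P4. Cngb1 (chr8:97762943-97830485) had an FPKM of 7.75 in pHes1_ENC and 0.575 in pHes1_EPC at P1, and 87.4 and 14.9 in the same fractions at P4. Both channel genes had the same order of libraries, and Cngb1 was 2.65 and 3.82 times the FPKM of Cnga1 in pHes1_ENC and pHes1_EPC at P1 and 2.20 and 2.19 times at P4.

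The second line of Cngb1 lies on chr5:143419272-143435263, where the annotation of NCBI37/mm9 holds Gm1977. That stretch aligned over 15992 bases to the first part of the Cngb1 locus, where the annotation holds BC016201 (chr8:97814493-97830485), and 99.9937% of the bases were identical. Of the 36-base windows of the annotated BC016201 transcript, 73.7% had an exact match in 2 or more places of the genome, and the rest crossed splice sites. Reads of 36 bases therefore cannot be told apart between the copies, and the chromosome 5 line was listed at 6.69, 0.502, 76.4 and 13.1 in P1 pHes1_ENC, P1 pHes1_EPC, P4 pHes1_ENC and P4 pHes1_EPC, which was between 0.863 and 0.879 times the line used here. The values of Cngb1 are uncertain in this respect. On the log2(FPKM + 1) scale the differences of the other line between the fractions were -2.36 at P1 and -2.46 at P4. They are no check on the line used, because the reads of the copies cannot be told apart. With the lines summed, the differences of Cngb1 were -2.89 at P1 and -2.51 at P4. Between the ages they were then 3.42 in pHes1_ENC and 3.80 in pHes1_EPC, against 3.34 and 3.33 for the line used. The annotated Cngb1 transcript, on chr8:97762945-97808081, does not reach BC016201, and 6.09% of its 36-base windows were found in 2 or more places. For the other members this share was at most 7.87%, in Gngt1, and 0% for Gnat1, Pde6b, Pde6g, Cnga1 and Sag.

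Sag encodes arrestin of rods, which quenches the activated opsin. Sag (chr1:89700255-89741732) had an FPKM of 83.2 in pHes1_ENC and 7.60 in pHes1_EPC at P1, and 822 and 172 in the same fractions at P4. In P4 pHes1_ENC it was at place 15 of the 21828 genes and was the highest of the 9. Without Gnb1, Sag made up between 41.4% and 48.0% of the summed FPKM of the other members in each library.

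**Figure D1:**
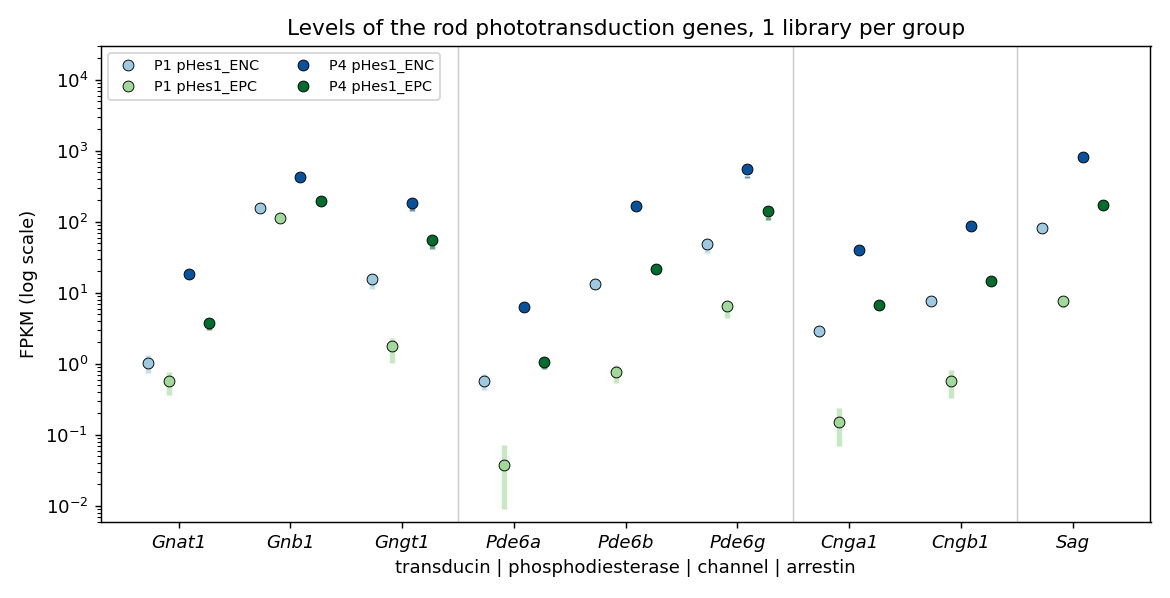
FPKM (log axis) of each gene in the 4 libraries, grouped by role. Points are the deposited values and bars the Cufflinks 95% intervals, which cover counting error only. P1 pHes1_EPC is the lowest and P4 pHes1_ENC the highest library for each of the 9 genes.

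The order of the levels was nearly the same in all libraries. In P4 pHes1_ENC it ran Sag, Pde6g, Gnb1, Gngt1, Pde6b, Cngb1, Cnga1, Gnat1 and Pde6a, with overlapping intervals between Pde6g and Gnb1 and between Gngt1 and Pde6b. In P1 pHes1_ENC and in P4 pHes1_EPC Gnb1 came first and the other genes kept that order, with intervals that overlapped only between Gngt1 and Pde6b in P1 pHes1_ENC. In P1 pHes1_EPC the order was Gnb1, Sag, Pde6g, Gngt1, Pde6b, Cngb1, Gnat1, Cnga1 and Pde6a, and neighbours did not differ beyond their intervals for Sag and Pde6g, for Pde6b, Cngb1 and Gnat1, and for Cnga1 and Pde6a. Of the 36 values, 11 in 5 genes lay above the upper bound of their own interval, as for Sag and for the short transcripts of Pde6g and Gngt1, so the place of these genes against the others is less certain than their intervals say. Together the 9 genes took 0.118% of the summed FPKM of pHes1_ENC and 0.0450% of that of pHes1_EPC at P1, and 0.757% and 0.165% at P4. Without Gnb1 the shares were 0.0625%, 0.00614%, 0.617% and 0.112%.

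The comparison of the fractions asks how the genes of the cascade differed between the cells with an active Hes1 promoter and the rest of the retina. All 9 genes were listed lower in pHes1_EPC than in pHes1_ENC at both ages. At P1, 6 of the 9 genes had a difference in log2(FPKM + 1) below -1, against 6.79% of all genes, and for 8 of the 9 the intervals stood apart in this direction, against 21.8% of all genes. At P4 the difference was below -1 for 9 of 9 genes, against 5.42% of all genes, and the intervals stood apart for 9 of 9, against 18.6%. The median difference of the 9 genes was -2.47 at P1 and -2.05 at P4, while that of the genes that reached an FPKM of 1 in either library was 0.03 and 0.17. With 1 library in each group there is no spread between replicates and no test, so these are differences between libraries. In sorted populations, fewer rods and less RNA per rod cannot be told apart.

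At P1 the differences ran from -3.29 for Sag, which was 10.9 times higher in pHes1_ENC, to -0.37 for Gnat1, which was 1.81 times higher with a range of 0.954 to 3.64 from the intervals. Sag, Pde6b (-3.01), Pde6g (-2.72), Gngt1 (-2.59), Cngb1 (-2.47) and Cnga1 (-1.77) were the 6 genes below -1. The other 3 were Gnat1, Pde6a and the general beta subunit Gnb1, at -0.43. Pde6a had a difference of -0.60 on the log2(FPKM + 1) scale although its FPKM was 15.0 times higher in pHes1_ENC, with a range of 5.85 to 79.2. Both of its P1 values are below the pseudocount of 1, which compresses the log2 difference.

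At P4 the largest difference was that of Pde6b, at -2.90, with an FPKM 7.78 times higher in pHes1_ENC (range 6.98 to 8.41). Cngb1 (-2.48), Cnga1 (-2.39), Sag (-2.25) and Gnat1 (-2.05) followed, then Pde6g (-1.96), Pde6a (-1.84) and Gngt1 (-1.72), and the smallest was that of Gnb1 at -1.11. Leaving Gnb1 aside, pHes1_EPC had between 12.9% of the pHes1_ENC level, for Pde6b, and 29.9%, for Gngt1. None of the 9 genes was at 0 in pHes1_EPC, and Sag and Pde6g were at 172 and 140.5 there.

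**Figure D2:**
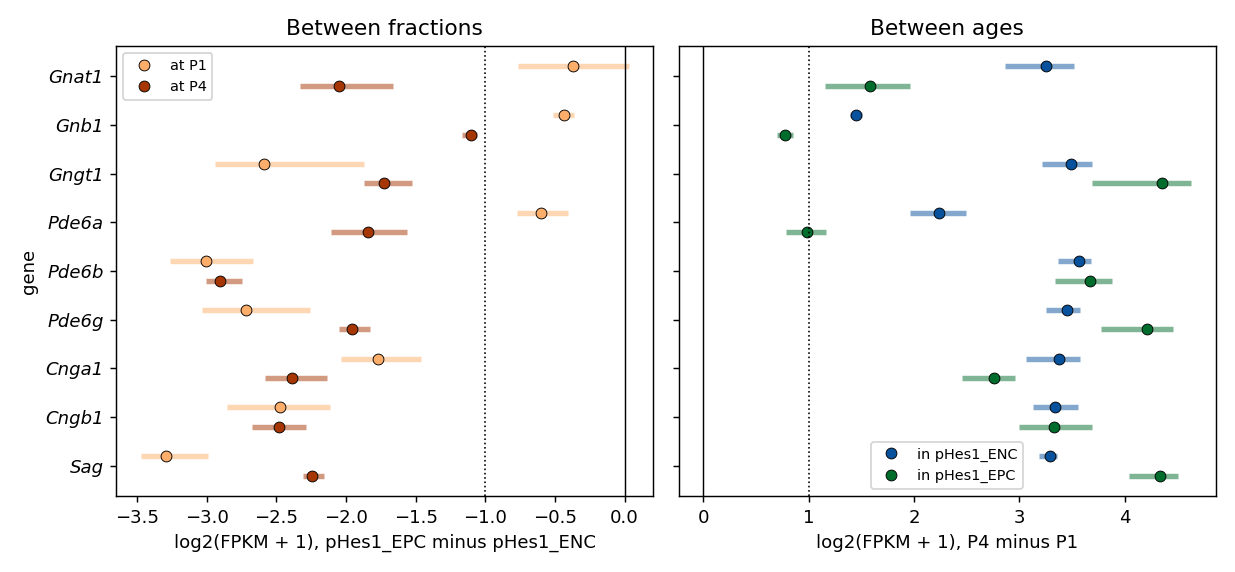
Differences in log2(FPKM + 1) for the 9 genes, left between the fractions at each age and right between the ages in each fraction. Bars are the ranges that the Cufflinks intervals allow and dotted lines the 2-fold limit. All points lie below 0 on the left and above 0 on the right, and Gnat1 at P1 is the only bar that reaches 0.

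The comparison of the ages asks how the cascade changed from P1 to P4 within each fraction. The 9 genes were higher at P4 in both fractions, and age cannot be told apart from the day of sorting. In pHes1_ENC the difference in log2(FPKM + 1) exceeded 1 for 9 of 9 genes, against 2.77% of all genes, and the intervals stood apart for 9 of 9, against 16.9%. In pHes1_EPC it exceeded 1 for 7 of 9 genes, against 4.17% of all genes, and the intervals stood apart for 9 of 9, against 27%. The median difference was 3.34 in pHes1_ENC and 3.33 in pHes1_EPC, and that of the genes that reached an FPKM of 1 was 0.00388 and 0.19.

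In pHes1_ENC the members were among the genes with the largest differences between the ages, with 8 of the 9 within the first 100 of 21828 genes. Pde6b (3.56), Gngt1 (3.49), Pde6g (3.46), Cnga1 (3.38), Cngb1 (3.34), Sag (3.29) and Gnat1 (3.26) were at places 9 to 17, Pde6a (2.23) at place 62 and Gnb1 (1.45) at place 253. As ratios of FPKM, 7 of them lay between 9.89 for Sag and 13.6 for Cnga1, Gnat1 was 17.8 times higher at P4, and Gnb1 2.74 times. Subunits of the channel and of the phosphodiesterase had nearly the same ratio, at 13.6 and 11.3 for Cnga1 and Cngb1 and at 11.2, 12.7 and 11.2 for Pde6a, Pde6b and Pde6g.

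In pHes1_EPC the differences on the log2(FPKM + 1) scale were 4.36 for Gngt1, 4.33 for Sag, 4.21 for Pde6g, 3.67 for Pde6b, 3.33 for Cngb1, 2.76 for Cnga1 and 1.58 for Gnat1. Pde6a at 0.99 and Gnb1 at 0.78 were the 2 genes under the limit of 1. As ratios of FPKM the increase was wider than in pHes1_ENC for 7 genes, with 45.1 for Cnga1, 31.4 for Gngt1, 28.1 for Pde6b, 27.8 for Pde6a, 25.9 for Cngb1, 22.7 for Sag and 21.2 for Pde6g. Gnat1 at 6.50 and Gnb1 at 1.72 went the other way.

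The gap between the fractions, given as the FPKM in pHes1_ENC over that in pHes1_EPC, was accordingly smaller at P4 for 7 genes and larger for 2. For Cnga1 it was 19.5 at P1 (range 10.2 to 48.7) and 5.86 at P4 (4.87 to 6.84), for Pde6b 17.3 (11.8 to 25.5) and 7.78, and for Sag 10.9 (8.81 to 12.8) and 4.77 (4.49 to 4.98). Cngb1 had 13.5 and 5.88, Gngt1 8.83 and 3.35 and Pde6g 7.41 and 3.91, and the ranges of the 2 ages did not overlap for any of these 6 genes. For Pde6a, with 15.0 and 6.03 (4.51 to 8.22), they did overlap. Gnat1 went from 1.81 to 4.98 (3.67 to 6.40) and Gnb1 from 1.35 (1.29 to 1.43) to 2.16 (2.08 to 2.25), with ranges apart for both. The ranges cover counting error only, and whether the gap itself differed between the ages was not tested. Over the same days the summed FPKM of the 11 Müller glia markers in pHes1_EPC was 1685 and 3156, and that of 9 progenitor markers, with none at 0, 2854 and 1955. These sums rest on few genes, such as Ccnd1 among the progenitor markers, at 1406 and 532, and Apoe among the glial ones, at 146 and 838. The median differences between the ages were 0.39 and -0.06, with 4 of 11 glial markers above 1 and 2 of 9 progenitor markers below -1.

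**Figure D3:**
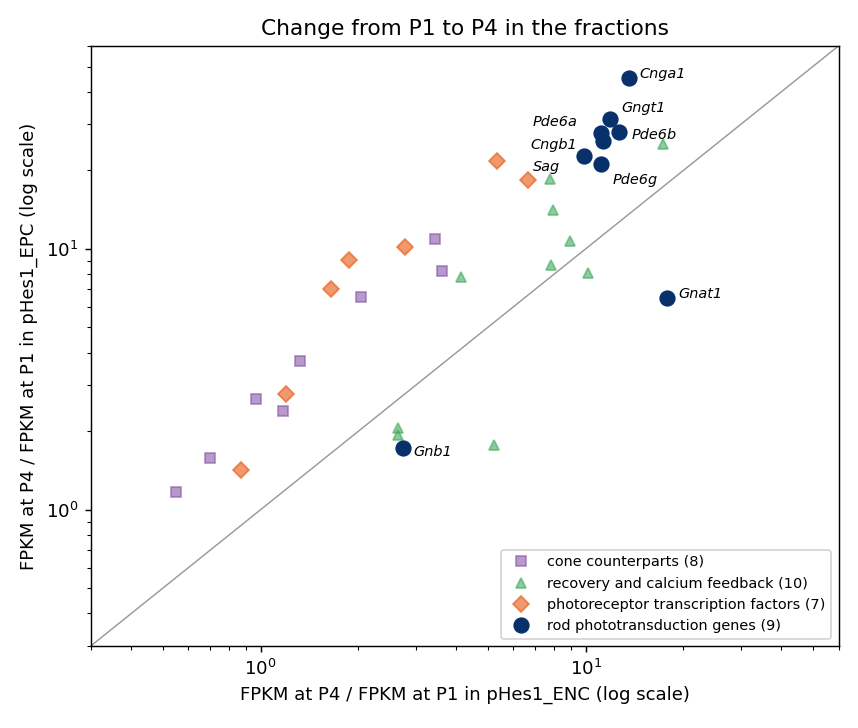
FPKM at P4 over FPKM at P1 in pHes1_EPC against the same ratio in pHes1_ENC, on log axes, with each point a gene and the line marking equal ratios. Shown are the 9 rod genes and, of 3 other lists, the genes that reached an FPKM of 1 in a pHes1_ENC library and above 0 at P1. Of the rod genes, 7 lie together above the line at the upper right, and Gnat1 and Gnb1 lie below it.

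Cones use their own genes for most steps of the cascade, which gives a counterpart in the same libraries. Of 10 cone genes, 7 at P1 and 5 at P4 had a difference below -1 between the fractions, and 3 in pHes1_ENC and 6 in pHes1_EPC were above 1 between the ages. The medians of the cone genes were -1.89 at P1 and -0.98 at P4 between the fractions, and 0.31 in pHes1_ENC and 1.12 in pHes1_EPC between the ages. The rod genes had 3.34 and 3.33 for the latter, so on this scale the 2 sets were furthest apart in the difference between the ages in pHes1_ENC. Several genes of both sets were below the pseudocount of 1 in P1 pHes1_EPC, such as Cngb3 at 0.668 and Cngb1 at 0.575. This compresses their differences there, so the comparison with the widest distance may be another one for ratios of FPKM.

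Gene by gene, the ratio of the rod member to its cone counterpart was higher at P4 than at P1 in both fractions for the alpha subunit of transducin, the phosphodiesterase, the channel and arrestin. Gnat2, the cone alpha subunit, was listed at 18.5 in pHes1_ENC at P1 and at 0.971 times that level at P4, and the ratio of Gnat1 to Gnat2 was 0.0558 and 1.03, the latter with a range of 0.877 to 1.29 that includes equal levels. In pHes1_EPC that ratio was 0.184 at P1 and 0.450 at P4, with Gnat2 the higher gene at both ages. The ratio of Cnga1 to Cnga3, the cone channel alpha subunit, was 0.866 and 16.8 in pHes1_ENC and 0.289 and 8.23 in pHes1_EPC, and that of Cngb1 to Cngb3 was 0.866 and 7.38 in pHes1_ENC and 0.860 and 5.95 in pHes1_EPC. The ratio of Pde6a to Pde6c, the cone catalytic subunit, was 0.188 and 3.81 in pHes1_ENC and 0.0815 and 1.95 in pHes1_EPC. Pde6b was listed above Pde6c already at P1, by 4.30 times in pHes1_ENC and 1.62 times in pHes1_EPC, the latter with a range of 0.848 to 3.27, and at P4 by 98.9 and 39.1 times. Sag was 67.8 and 32.9 times the level of Arr3, the cone arrestin, at P1 and 185 and 90.8 times at P4. In pHes1_EPC, where Arr3 was at 0.231 and 1.90, the ranges of the ages overlapped, at 16.7 to 96.2 and 63.3 to 125. The ratio of Pde6g to Pde6h was 120 and 621 in pHes1_ENC and 61.8 and 162 in pHes1_EPC, over levels of Pde6h below an FPKM of 1, and its range in P1 pHes1_EPC begins at 21.3 and has no upper bound. In pHes1_ENC its ranges were 50.3 to 661 at P1 and 283 to 1565 at P4, so the ranges of the ages overlapped in both fractions.

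For the gamma subunit the cone gene was the higher in every library, and for the beta subunit the fractions differed in direction between the ages. Gngt2, assigned to cones, was listed at 202, 19.9, 692 and 216 in P1 pHes1_ENC, P1 pHes1_EPC, P4 pHes1_ENC and P4 pHes1_EPC, which was 12.9, 11.2, 3.70 and 3.87 times the FPKM of Gngt1. Gnb3, the beta subunit of cones, was listed at 159, 9.86, 324 and 64.6. The ratio of Gnb1 to Gnb3 was 0.976 and 1.31 in pHes1_ENC and 11.6 and 3.05 in pHes1_EPC. The intervals gave ranges of 1.03 to 1.16 and 1.42 to 1.54 in pHes1_ENC, and 10.9 to 14.7 and 3.14 to 3.65 in pHes1_EPC. Only the ratio in P1 pHes1_EPC lay inside its range, so which gene was higher in P1 pHes1_ENC is uncertain. The ratios of Gngt2 to Gngt1 likewise lay below their ranges except in P1 pHes1_EPC, as at 3.70 against 4.32 to 5.02 in P4 pHes1_ENC. Gnb2, a beta subunit found in most tissues, was listed at 192, 146, 344 and 234. Gnb4 was the only beta subunit gene listed higher in pHes1_EPC at both ages, at 10.8 against 4.15 and at 5.27 against 2.64.

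**Figure D4:**
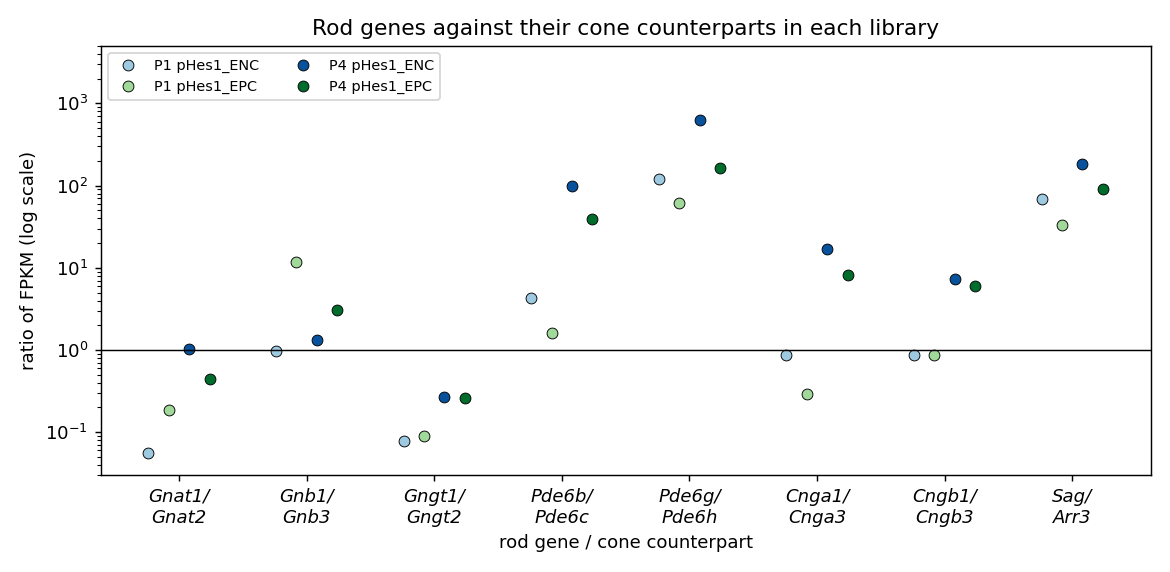
Ratio of the FPKM of each rod gene to that of its cone counterpart in the 4 libraries, on a log axis with the line at equal levels. The ratio is higher at P4 than at P1 within each fraction for each pair except Gnb1 over Gnb3 in pHes1_EPC, and the ratio of Gngt1 to Gngt2 stays below the line.

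The general arrestins gave the contrast to Sag within its family. Arrb1 was listed at 20.3, 6.75, 8.25 and 6.31 in P1 pHes1_ENC, P1 pHes1_EPC, P4 pHes1_ENC and P4 pHes1_EPC, and Arrb2 at 17.9, 27.1, 13.1 and 24.8. Arrb2 was thus higher in pHes1_EPC at both ages, with differences of 0.57 and 0.88, while Sag and Arrb1 (-1.46) were below -1 at P1, and of the 4 arrestins Sag alone at P4. Of the 6 cyclic nucleotide-gated channel genes, 4 at P1 and 3 at P4 were below -1, which included both members each time. Of the 6 genes for subunits of phosphodiesterase 6, including the prenyl-binding protein Pde6d, 3 were below -1 at each age. Of the 12 G protein gamma genes, 5 were below -1 at P1, and at P4 2 were below -1 and 6 above 1, so Gngt1 was on the side of the minority at P4. Of the 3 transducin-like alpha genes, Gnat3 was listed at 0 in all 4 libraries.

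Genes that act on the same cascade were described by the same counts. Of 11 genes of recovery and calcium feedback, 7 at P1 and 9 at P4 had a difference below -1 between the fractions, with medians of -1.33 and -1.79, and 10 in pHes1_ENC and 6 in pHes1_EPC were above 1 between the ages. Pdc, for phosducin, which binds the beta and gamma subunits of transducin, was the highest of them, at 209, 16.7, 1623 and 310. Grk1, the opsin kinase, had the lowest difference of the list at P4 (-2.83) and Slc24a1, the sodium, calcium and potassium exchanger of rods, the highest (-0.47). Of 5 partners in assembly and lipid binding, 4 at each age were below -1, with the highest level of the list in P4 pHes1_ENC that of Unc119, which binds the lipid of the transducin alpha subunit, at 192, 25.1, 668 and 167 in P1 pHes1_ENC, P1 pHes1_EPC, P4 pHes1_ENC and P4 pHes1_EPC. In P1 pHes1_EPC Pde6d was higher, at 28.1. Reep6 had the lowest difference at P4 (-2.48) and Pde6d the highest (-0.90).

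Of 8 transcription factors of photoreceptors, 6 at each age were below -1 between the fractions, with medians of -3.74 and -2.28. Nr2e3, a nuclear receptor that represses cone genes in rods, had the highest level of the list in P4 pHes1_ENC, at 984, and was listed at 148 in P1 pHes1_ENC and at 8.98 and 165 in pHes1_EPC, and in each of these 3 libraries other factors of the list were higher. Its difference of -2.57 at P4 was the lowest of the list. Rorb, which other retinal cells also express, had the highest, at 0.15. Between the ages the factors had a median of 0.89 in pHes1_ENC, where 3 of 8 were above 1, against 3.34 for the 9 members, and of 2.95 in pHes1_EPC, where 6 of 8 were above 1.

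The pattern of the members over the 4 libraries was taken as log2(FPKM + 1) centred on the mean of each gene. It was compared by Euclidean distance with genes that reached an FPKM of 10 in at least 1 library. For the median pattern these were 8395 genes outside the members. For a single member they were 8402 or 8403 genes, which included the other members that reached this level. Nearest to the median pattern of the 9 members were Rcvrn, for recoverin, and Htra1, each at a distance of 0.54, Reep6 at 0.55, Slc17a7 at 0.62 and BC033916 at 0.67. Among the members Cngb1 was closest to this median pattern, at 0.13, and Gnat1 (1.71), Pde6a (2.16) and Gnb1 (2.76) were farthest. Gngt1 and Pde6g were each other's nearest gene, at 0.21. The nearest gene of Sag was Pdc (0.35), that of Pde6b was Prph2 (0.48), a structural protein of outer segments, and that of Cnga1 was Ppp2r2b (0.27). Cngb1 was nearest to Htra1 (0.50), Gnat1 to Susd3 (0.50), Gnb1 to Stk30 (0.11) and Pde6a to Gal3st4 (0.04). Distances over 4 libraries are descriptions of these values, and low genes lie close to many others on this scale. Pde6a is such a gene, with both P1 values below the pseudocount of 1. Its FPKM was 15.0 and 6.03 times higher in pHes1_ENC at P1 and P4, against member medians of 10.9 and 4.98. From P1 to P4 in pHes1_EPC it rose 27.8 times, from few reads, against a median of 25.9. Gal3st4 went from 2.65 to 6.37 there. The distances of Pde6a therefore do not reflect its ratios of FPKM.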

How the data were processed

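Retinal cells of pHes1-EGFP mice were sorted for EGFP on a MoFlo sorter at P1 and P4, and random-primed cDNA was sequenced as single reads of 36 bases. Per the submitters' processing notes, bcl2fastq 1.8.4, TopHat2 2.0.8b and Cufflinks 2.1.1 were used with the genome mm9. The authors deposited, for each library, gene FPKM with a 95% interval and a status. Read counts were not used here, so the depth is known only through the widths of the intervals, by which 1 read was worth at most 1.06 times as much in any library as in P1 pHes1_ENC.

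Small RNAs were left out by symbol (796 lines), and a symbol on several lines is represented by its highest. Differences are of log2(FPKM + 1), with a limit of 1 (2-fold). Ranges of ratios set the lower bound of the one interval against the upper bound of the other. No test was possible with 1 library in each group. The calculations used Python 3.11.15, numpy 2.4.6, pandas 2.3.3 and matplotlib 3.10.9, and were checked on simulated data. Genes outside the 9 members are named as counterparts or paralogs, as the highest in level or the extremes at P4 of their list, or by nearness of pattern. The members and lists were chosen with earlier results of these data known. The methods of the study mention ICR mice beside the strain on the labels. The sequences of the Cngb1 copies are not reported here.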

Additional observations from a re-analysis of the deposited data

How the results depend on the processing

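The alternatives were a pseudocount of 0.1, scaling to the same total, by median of ratios or by quantile normalization, an FPKM of at least 1, small RNAs kept, lines of a symbol summed, status OK only, and intervals that stand apart as the call. The counts of members past the limit stayed within 1.5 times of those given under each, and no direction was reversed among the 9 genes. With a pseudocount of 0.1 the median difference of the members was -3.07 at P1 and 4.47 between the ages in pHes1_EPC, and with the same total -2.94 at P1, -2.52 at P4 and 3.80 between the ages in pHes1_EPC. Pde6a passed the limit with a pseudocount of 0.1 (-2.29 at P1 and 3.07 between the ages in pHes1_EPC) and with the same total (-1.44 and 1.77). The same total both enlarges every FPKM, so that the pseudocount weighs less, and rescales the libraries against each other, and with it, over all genes, 2141 in place of 1483 were below -1 at P1 and 2170 in place of 1184 at P4. Between the ages in pHes1_EPC, 587 genes in place of 911 exceeded 1 with median-of-ratios scaling, which shifted the median of the genes with an FPKM of at least 1 by -0.18, and 593 with quantile normalization. No paired analysis was possible because each group had 1 library, which leaves nothing to estimate a block from. Depth limits the values of Pde6a, Cnga1 and Cngb1 in P1 pHes1_EPC, whose intervals have the width of 6.61, 13.4 and 22.3 reads.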
